A study of Mus musculus with 8 samples.

Results

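The 10 genes *H19*, *Igf2*, *Dlk1*, *Meg3*, *Peg3*, *Mest*, *Cdkn1c*, *Plagl1*, *Grb10* and *Igf2r* are imprinted genes that act on growth of the mouse fetus or lie beside genes that do. They were picked by name, and all 10 were present among the 14608 genes measured. The RNA came from the outflow tract (OFT), the vessel through which the embryonic heart ejects blood and in which the arterial valves form, at embryonic day 11.5. Poly-A RNA was sequenced in 4 control libraries and 4 libraries of *Mib1*V943F/+ *Gata6*STOP/+ embryos, here called mutant. Mutant embryos carried 1 copy of a *Mib1* allele with the V943F missense change and 1 copy of a *Gata6* allele described as null, both in every cell of the body and not in 1 tissue. MIB1 is a ubiquitin ligase that activates NOTCH ligands and GATA6 is a transcription factor of heart development. The control embryos are given as control in the genotype field and as WT in the sample titles, and no sex or strain is given for either group. The labels state that each library pooled 3 individuals, whereas the methods describe another pooling scheme, so the number of embryos behind a library is uncertain.

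Imprinted genes are transcribed mainly from the copy inherited from 1 parent, because DNA methylation set in the egg or the sperm marks the parental copies differently. Many of them adjust the growth of the fetus and placenta, and in several domains a protein-coding gene expressed from the paternal copy neighbours a noncoding RNA expressed from the maternal copy. *Igf2*, *Dlk1*, *Peg3*, *Mest* and *Plagl1* are known as paternally expressed, and *H19*, *Meg3*, *Cdkn1c*, *Igf2r* and, in most tissues, *Grb10* as maternally expressed. The levels here are sums over both copies, so the parental origin of the RNA was not measured.

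Several members also carry microRNAs inside their transcribed regions, and the sequences of 3 of these hairpins are given because they are part of what a read on the host gene can and cannot report. MicroRNAs of this length are not captured by a poly-A library, so the levels below are those of the host transcripts and the mature forms were not measured. The mature sequences from RefSeq (GRCm38.p6) are written 5′ to 3′ with the seed, bases 2 to 8, in capitals. Hairpin miR-675 lies in an exon of *H19* on chromosome 7, miR-483 in an intron of *Igf2* and miR-335 in an intron of *Mest* on chromosome 6, each on the strand of its host.
miR-675-5p: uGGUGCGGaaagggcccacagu
miR-675-3p: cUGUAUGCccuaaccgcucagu
miR-483-5p: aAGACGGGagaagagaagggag
miR-483-3p: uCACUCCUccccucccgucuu
miR-335-5p: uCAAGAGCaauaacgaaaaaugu
miR-335-3p: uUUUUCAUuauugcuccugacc
The 6 seeds all differ from each other. *Meg3* holds 2 further hairpins in its exons, miR-770 and miR-1906, which brings the count to 5 hairpins and 9 mature sequences found for the members.

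Start-site sequences are shown for 2 members, *Mest* because its estimated difference between groups was the largest of the 10 and *Peg3* because it is read outwards from the same short interval as its neighbour *Usp29*. The *Mest* window printed is 1 of 3 in the table and was picked for its hexamers: the window at chr6:30733256-30733555 has 0 hexamers and 8 CpG, and the remaining one starts 3 bases before the window printed. Windows run from 250 bases before to 50 after a RefSeq start on GRCm38.p6, and 15 such windows were found for 8 members, *H19* and *Cdkn1c* being the members with no entry. Capitals mark TGCCGC or its reverse complement, the hexamer bound by ZFP57, a zinc-finger protein that keeps methylation on imprinted copies.
Mest, chr6:30737803-30738102, plus strand: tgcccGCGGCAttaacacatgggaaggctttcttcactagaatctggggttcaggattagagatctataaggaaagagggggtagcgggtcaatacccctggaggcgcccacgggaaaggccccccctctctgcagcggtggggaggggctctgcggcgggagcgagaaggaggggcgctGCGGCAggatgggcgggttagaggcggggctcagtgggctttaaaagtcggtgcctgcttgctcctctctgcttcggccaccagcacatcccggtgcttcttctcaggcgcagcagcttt
Peg3, chr7:6730370-6730669, minus strand: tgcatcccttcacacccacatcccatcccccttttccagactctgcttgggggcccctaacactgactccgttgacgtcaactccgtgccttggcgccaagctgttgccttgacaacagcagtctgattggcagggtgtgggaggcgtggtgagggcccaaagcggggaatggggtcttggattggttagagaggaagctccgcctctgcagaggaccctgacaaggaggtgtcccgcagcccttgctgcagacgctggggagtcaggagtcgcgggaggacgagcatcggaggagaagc
This *Mest* window held 2 copies of the hexamer and the *Peg3* window 0. At least 1 copy stood in 6 of the 15 member windows, which belong to 5 members and of which 2 are the near-identical *Mest* windows, and in 11.6% of all 32851 windows of the same length. GCCATNTT, the core of the YY1 site, was in 0 member windows and in 6.05% of all windows, searched on both strands. CpG dinucleotides numbered 17 in this *Mest* window and 13 in the *Peg3* window, against a median of 7 over all windows. The hexamer itself contains a CpG, and the member windows that held it had 13 (*Meg3*) to 45 (*Grb10*) CpG. The share of 11.6% was not matched for CpG, so the 2 shares cannot be read as an excess in the members. These are matches of letters in short windows and say nothing of binding.

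*Gata6* and *Mib1* RNA did not separate the groups. *Gata6* was at 262 ± 18.5 CPM in control and 249 ± 36.1 CPM in mutant libraries, and *Mib1* at 122 ± 15.6 and 128 ± 6.62 CPM (mean ± SD, n = 4 each). CPM are reads scaled to a common library size, here after the TMM normalization that the authors applied. The table holds 10669420 reads in control replicate 2, the shallowest library, and 21064242 to 30469165 reads in the other 7. Every member had at least 2287 reads in each library, so counting error was small beside the spread between libraries. The summed level of 8 cardiomyocyte genes ran from 19561 to 22774 CPM in control and from 15097 to 18270 CPM in mutant libraries, which do not overlap. The 4 measured genes of 5 on a second heart field list summed to 33.4 to 39.9 CPM in control and 50.1 to 86.1 CPM in mutant libraries, also without overlap. Summed levels of endocardial, cushion mesenchyme, smooth muscle, epicardial, neural, epithelial, erythroid and macrophage genes overlapped between the groups, 0 of 5 skeletal muscle genes were listed, and of 5 hepatic and yolk sac genes *Alb*, *Ttr*, *Apoa1* and *Apob* were not listed. Mutant replicate 2 had the highest sum of the 8 libraries for cushion mesenchyme (3535 CPM), epicardial (524 CPM), erythroid (5118 CPM) and macrophage genes (75.5 CPM). It had the lowest for cardiomyocyte (15097 CPM), smooth muscle (2201 CPM) and neural genes (29.0 CPM). In bulk tissue, fewer cells of a type and less RNA per cell cannot be told apart, and the part of these shifts in any result below was not tested.

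The members included some of the most abundant transcripts of the OFT. Ranked by mean CPM over all 14608 genes, *H19* stood at 1, *Igf2* at 4, *Igf2r* at 12, *Grb10* at 24, *Mest* at 40, *Peg3* at 80, *Cdkn1c* at 89, *Meg3* at 131, *Plagl1* at 187 and *Dlk1* at 1116. The 10 genes together took 2.65% to 3.04% of all CPM in a library, of which *H19* alone took 1.11% to 1.34%. To compare one gene with another, CPM were divided by the length of the longest annotated transcript. *H19* then led with a mean of 5360 CPM per kb, from 4872 to 5827 over the 8 libraries, and *Igf2* followed with 1579 CPM per kb, from 1193 to 1744. *Mest* (603 CPM per kb), *Cdkn1c* (476), *Grb10* (392) and *Igf2r* (301) formed the middle of the order. *Peg3* (112 CPM per kb), *Plagl1* (108), *Meg3* (49.1) and *Dlk1* (36.1) were the lowest.

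The ranges of *H19* and *Igf2* did not meet each other or those of any other member. *Mest*, from 330 to 983 CPM per kb, overlapped *Cdkn1c*, from 262 to 605. *Grb10*, from 378 to 414 CPM per kb, lay within both of these ranges and just met *Igf2r*, from 240 to 381. *Peg3* and *Plagl1* overlapped almost wholly, from 96.3 to 130 and from 95.1 to 129 CPM per kb, and *Meg3*, from 42.6 to 54.8, overlapped *Dlk1*, from 29.5 to 46.6. The steps from *H19* to *Igf2*, from *Igf2* to *Mest*, from *Igf2r* to *Peg3* and from *Plagl1* to *Meg3* were thus wider than the spread over libraries, and the other steps of the order were not. With the union of all exons as the length, *Cdkn1c* (444 CPM per kb) stood above *Mest* (408), and *Igf2r* (287) above *Grb10* (218).

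**Figure D1:**
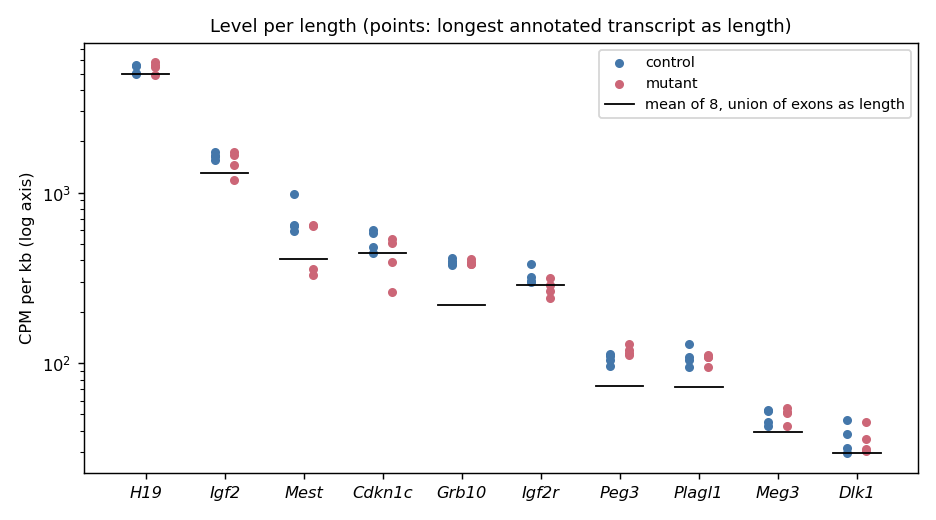
Level of each member per length of transcript, in CPM per kb on a log axis, with 1 point per library (4 control, blue; 4 mutant, red) and the longest annotated transcript as the length. Black lines give the mean of the 8 libraries with the union of exons as the length. *H19* and *Igf2* lead in every library, with lowest values of 4872 and 1193 CPM per kb, and *Meg3* and *Dlk1* stay at or below 54.8.

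None of the 10 members differed between mutant and control OFT in the limma fit over all genes at a Benjamini-Hochberg adjusted p of 0.05, a threshold that 0.0% of the 14608 genes passed. Their adjusted p ran from 0.376 for *Mest* to 0.955 for *Grb10*. At an unadjusted p under 0.05, 2 of the 10 members, *Mest* and *Igf2r*, were lower in mutant libraries and 0 were higher, beside 6.62% of all genes that were lower and 5.45% that were higher. The groups overlapped for all 10 members, while 7.1% of all genes had groups that did not overlap. The median log2 difference of the members, mutant minus control, was -0.032, and that of all genes 0.001. Of the 5 paternally expressed members 4 had a negative and 1 a positive estimate, and of the 5 maternally expressed members 3 were negative and 2 positive. The edgeR likelihood ratio test and DESeq2, run on the reads recovered from CPM, called 0 members at an adjusted p of 0.05, with 0.732% and 1.31% of all genes called. The quasi-likelihood test called 0 members, with 0.0% of all genes called, and put 3 members at an unadjusted p under 0.05, with 11.7% of all genes there. The count of 2 members at an unadjusted p under 0.05 became 0 without mutant replicate 2 or without mutant replicate 3, 1 without control replicate 1, 2 or 3, and 3 without mutant replicate 1 or 4.

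**Figure D2:**
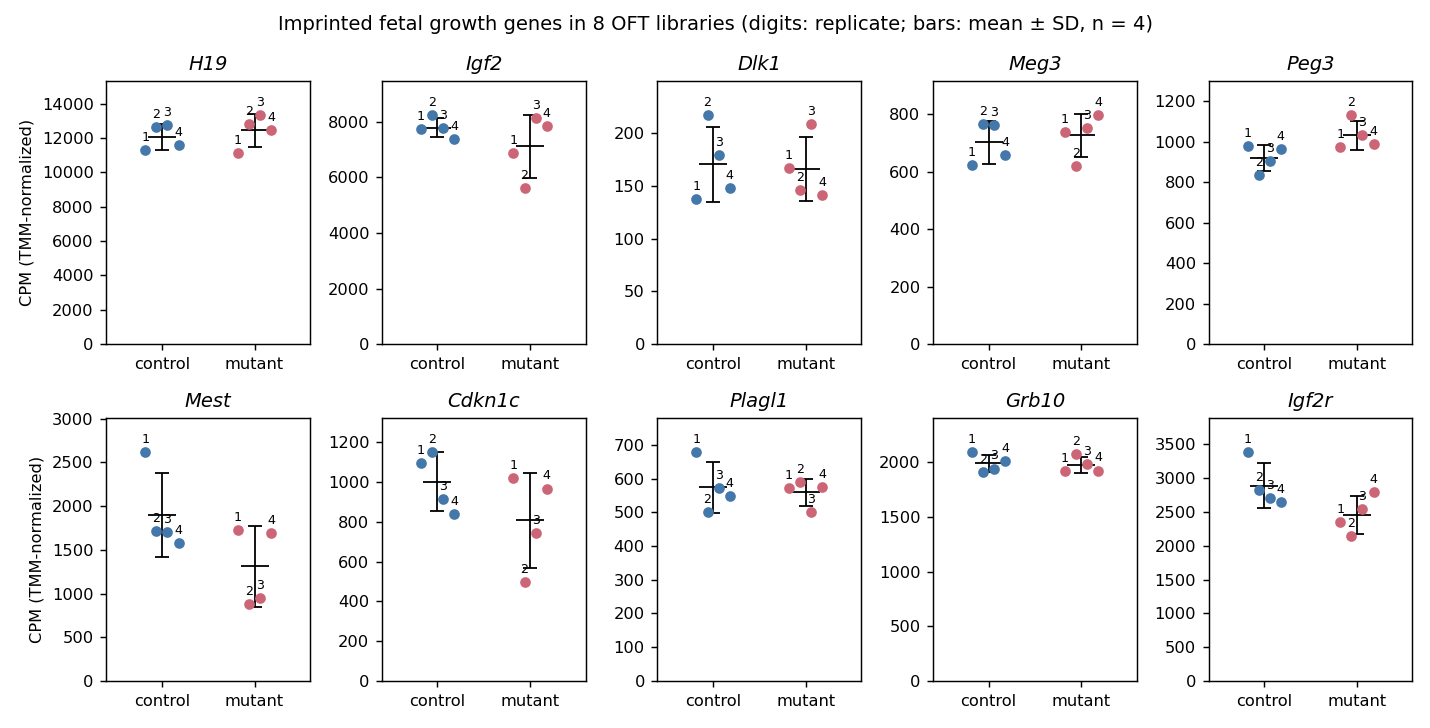
Normalized level of each member in the 8 libraries, in CPM on an axis from 0, with the replicate number beside each point and the mean ± SD (n = 4) as bars. The 2 groups overlap in every panel. *Mest* is lowest in mutant replicates 2 and 3, at 880 and 946 CPM, and highest in control replicate 1, at 2619 CPM.

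IGF2 is a fetal growth factor that signals through the type 1 IGF receptor and the insulin receptor, and IGF2R is the receptor that takes IGF2 up and delivers it to lysosomes. *Igf2* (chr7:142650766-142666816, minus strand) measured 7755, 8234, 7793 and 7383 CPM in the controls, in the order of their replicate numbers, against 6875, 5632, 8127 and 7844 CPM in the mutants. Mutant replicate 2 was the lowest of the 8, and the remaining mutant libraries lay among or just under the controls. The log2 difference was -0.14 (SE 0.12, 95% interval -0.41 to 0.13, limma adjusted p = 0.634), and it shrank to -0.036 without mutant replicate 2. *Igf2r* (chr17:12682406-12769664, minus strand) was at 3386, 2826, 2710 and 2640 CPM in control and 2353, 2137, 2539 and 2792 CPM in mutant libraries. Control replicate 1 was the highest and mutant replicates 1 and 2 the lowest, and mutant replicate 4 stood above 2 of the controls. The log2 difference of *Igf2r* was -0.24 (SE 0.11, 95% interval -0.47 to -0.001, limma unadjusted p = 0.0494 and adjusted p = 0.414). Its exact permutation p, two-sided over the 70 ways to split 8 libraries into groups of 4, was 0.0857, where the smallest possible is 0.0286. *Igf2r* was at an unadjusted p under 0.05 in 8 of 19 other settings, with estimates from -0.30 to -0.16 in all 19, among them -0.21 (unadjusted p = 0.0596) after a GC correction.

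*H19*, a noncoding RNA read from the maternal copy of the domain it shares with *Igf2*, lies at chr7:142575529-142578143 on the minus strand, 72622 bases from *Igf2*. It was at 11288, 12637, 12748 and 11585 CPM in control and 11136, 12818, 13320 and 12493 CPM in mutant libraries. The values of the groups overlapped widely, with the lowest and the highest of the 8 both in mutant libraries. For *H19* the log2 difference was 0.043 (SE 0.11, 95% interval -0.20 to 0.28, limma adjusted p = 0.887). For the spread of *H19* between libraries, of the 2250 genes averaging 100 CPM or more, 39.8% had a smaller SD within groups on the log2 scale. The ratio of *H19* to *Igf2* CPM was 1.46, 1.53, 1.64 and 1.57 in control and 1.62, 2.28, 1.64 and 1.59 in mutant libraries. Mutant replicate 2 stood apart from the other 7 in this ratio, through its low *Igf2* value. The ratio was 1.55 ± 0.0749 in control and 1.78 ± 0.330 in mutant libraries (SD, n = 4; exact permutation p = 0.0857, and 0.257 after Benjamini-Hochberg adjustment over the 3 ratios examined, which were picked after values had been seen). The ratios of *Meg3* to *Dlk1* and of *Igf2* to *Igf2r* gave permutation p of 0.686 and 0.40 in the same exact test.

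*Cdkn1c* encodes p57, an inhibitor of cyclin-dependent kinases that restrains cell division, and lies at chr7:143458339-143461050 on the minus strand. It was at 1098, 1151, 917 and 837 CPM in control and 1023, 498, 746 and 967 CPM in mutant libraries. Mutant replicates 2 and 3 were below every control, and mutant replicates 1 and 4 lay among the controls. *Cdkn1c* had a log2 difference of -0.35 (SE 0.19, 95% interval -0.77 to 0.069, limma adjusted p = 0.473), and -0.14 without mutant replicate 2. *Grb10* encodes an adaptor that dampens signalling of the insulin and IGF1 receptors and lies at chr11:11930508-12038683 on the minus strand. It was at 2094, 1916, 1943 and 2012 CPM in control and 1919, 2077, 1982 and 1925 CPM in mutant libraries. *Grb10* was the most even member, with 6.71% of the genes of at least 100 CPM having a smaller SD within groups. Its log2 difference was -0.011 (SE 0.072, 95% interval -0.17 to 0.15, limma adjusted p = 0.955), the narrowest interval of the 10.

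*Mest* encodes a protein of the alpha/beta hydrolase family and lies at chr6:30723547-30748465 on the plus strand. It was at 2619, 1711, 1704 and 1583 CPM in control and 1726, 880, 946 and 1698 CPM in mutant libraries. Mutant replicates 2 and 3 were far below the other 6 libraries, control replicate 1 was far above them, and mutant replicates 1 and 4 lay at the level of the other 3 controls. *Mest* had a log2 difference of -0.58 (SE 0.23, 95% interval -1.07 to -0.08, limma unadjusted p = 0.0264 and adjusted p = 0.376). The exact permutation p of *Mest* was 0.229. It was at an unadjusted p under 0.05 in 14 of 19 other settings, with estimates from -0.73 to -0.41, and its adjusted p was 0.263 or more in all 19. Among the genes of at least 100 CPM, 99.5% had a smaller SD within groups than *Mest* and 99.4% a smaller SD than *Cdkn1c*. Of the 45 pairs of members, 5 had a Pearson r beyond 0.8 in either direction over the 8 libraries, a description read after values were seen: *Meg3* and *Grb10* (-0.933), *Mest* and *Cdkn1c* (0.86), *Dlk1* and *Plagl1* (-0.815), *Peg3* and *Cdkn1c* (-0.813) and *Mest* and *Igf2r* (0.807).

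The spread of *Mest* ran beside that of some, not all, of the 8 genes on the cardiomyocyte list. *Nppa*, which encodes atrial natriuretic peptide and marks chamber myocardium, was at 157, 99.1, 122 and 65.9 CPM in control and 61.9, 5.67, 8.68 and 109 CPM in mutant libraries. Mutant replicates 2 and 3, the lowest in *Mest* and *Cdkn1c*, were again the lowest, and *Nppa*, *Myh6* and *Myh7* were singled out after their values were seen. *Myh6*, a myosin heavy chain gene, was also lowest in them, at 1279 and 1533 CPM beside 2016 and 2064 CPM in mutant replicates 1 and 4 and 2066 to 2450 CPM in the controls. *Tnnt2* and *Myl2* were lowest in these libraries too. In mutant replicates 1 to 4, *Tnnt2* was at 1496, 1345, 1420 and 1565 CPM and *Myl2* at 1548, 1297, 1253 and 1482 CPM. *Myh7*, the most abundant gene of that list, was at 7635, 7230, 8041 and 8753 CPM in mutant replicates 1 to 4 and at 9458 to 10880 CPM in the controls, with mutant replicate 1 between replicates 2 and 3. *Actn2* had the same order in the mutant libraries, at 859, 800, 862 and 982 CPM. Other genes of the list took another order: *Ttn* was at 1901, 2155, 2024 and 2197 CPM and *Myl7* at 1078, 985, 1309 and 1117 CPM in mutant replicates 1 to 4, so *Ttn* was lowest in replicate 1 and *Myl7* highest in replicate 3. The part of these genes, or of the cells that express them, in the *Mest* and *Cdkn1c* values was not tested.

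*Peg3* and *Plagl1* encode zinc-finger transcription factors. *Peg3* (chr7:6703892-6730431, minus strand) was at 977, 837, 904 and 962 CPM in control and 972, 1130, 1032 and 991 CPM in mutant libraries. Every mutant library except replicate 1 was above all 4 controls. The log2 difference was 0.16 (SE 0.078, 95% interval -0.004 to 0.33, limma adjusted p = 0.422), with an exact permutation p of 0.0571. *Peg3* was at an unadjusted p under 0.05 in 5 of 19 other settings, with estimates from 0.12 to 0.19 in all 19. *Plagl1* (chr10:13060504-13131694, plus strand), which is known to act on *Igf2* and other imprinted genes, was at 679, 500, 572 and 548 CPM in control and 571, 590, 502 and 574 CPM in mutant libraries. Control replicate 1 was the highest, and the other 7 libraries lay between 500 and 590 CPM. *Plagl1* had a log2 difference of -0.033 (SE 0.093, 95% interval -0.24 to 0.17, limma adjusted p = 0.898).

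*Dlk1* encodes a transmembrane protein related to NOTCH ligands but lacking the domain by which these engage the receptor, and *Meg3* is a noncoding RNA of the same domain on chromosome 12, 77664 bases away. *Dlk1* (chr12:109452823-109463336, plus strand) was at 137, 217, 179 and 148 CPM in control and 167, 146, 209 and 142 CPM in mutant libraries. Both groups held values near the top and the bottom of the range. *Dlk1* had a log2 difference of -0.032 (SE 0.15, 95% interval -0.35 to 0.29, limma adjusted p = 0.94). *Meg3* (chr12:109541001-109571726, plus strand) was at 623, 767, 763 and 658 CPM in control and 739, 620, 753 and 797 CPM in mutant libraries. Mutant replicate 2 and control replicate 1 were the lowest, at almost the same level. *Meg3* had a log2 difference of 0.049 (SE 0.096, 95% interval -0.16 to 0.26, limma adjusted p = 0.851).

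Single libraries carried much of the variation across the members. Mutant replicate 2 was the lowest of the 8 libraries for 5 members and the highest for 1, and its median deviation from the member means was -0.19 on the log2 scale. Control replicate 1 was the highest library for 4 members and the lowest for 1, and control replicate 2, the shallowest, was the highest for 3 and the lowest for 3.

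Relations between members were examined for 5 pairs over the 8 libraries, on log2(CPM + 0.5), with exact permutation tests and Benjamini-Hochberg adjustment over the 5. *Igf2* and *Igf2r* had a Pearson r of 0.726 (permutation p = 0.0555, adjusted p = 0.278) and a Spearman rho of 0.595 (permutation p = 0.132, adjusted p = 0.285). Without mutant replicates 1 and 2, the libraries farthest from the median of *Igf2*, r was -0.074, so the relation rests on them. Without control replicate 1 it was 0.909 (permutation p = 0.00913, adjusted p = 0.0456), and without mutant replicate 2 it was 0.445 (permutation p = 0.305). The adjustment covers the 5 pairs but not the choice of the library left out. *Dlk1* and *Meg3* had r = 0.584 (permutation p = 0.13, adjusted p = 0.326) and rho = 0.429 (permutation p = 0.299), with r = 0.513 without the 2 libraries farthest from the median of *Dlk1* and r = 0.892 (permutation p = 0.0127, adjusted p = 0.0635) without mutant replicate 4. Within the groups, r was 0.932 in the 4 control and 0.244 in the 4 mutant libraries, and mutant replicate 4 held the highest *Meg3* beside one of the lowest *Dlk1* values. In control and mutant libraries, r was 0.19 and 0.898 for *Igf2* and *Igf2r*, and 0.619 and 0.162 for *H19* and *Igf2*. It was 0.098 and -0.601 for *H19* and *Cdkn1c*, and -0.347 and -0.703 for *Plagl1* and *Igf2*. Each of these rests on 4 libraries, and a difference in r between the groups was not tested.

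*H19* and *Igf2* had r = 0.092 (permutation p = 0.862, adjusted p = 0.862) and rho = 0.333 (permutation p = 0.428), with r = 0.035 without the 2 libraries farthest from the median of *H19*. This value turned on mutant replicate 2, without which r was 0.793. For *H19* and *Cdkn1c*, r was -0.459 (permutation p = 0.26, adjusted p = 0.433) and rho -0.619 (permutation p = 0.115), with r = -0.221 without the 2 farthest libraries. *Plagl1* and *Igf2* had r = -0.316 (permutation p = 0.406, adjusted p = 0.507) and rho = -0.548 (permutation p = 0.171), with r = -0.613 without the 2 farthest libraries. Leaving out 1 library moved that r from -0.677 (without control replicate 1) to -0.177 (without control replicate 2). None of the 5 relations passed the threshold after adjustment with all 8 libraries.

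**Figure D3:**
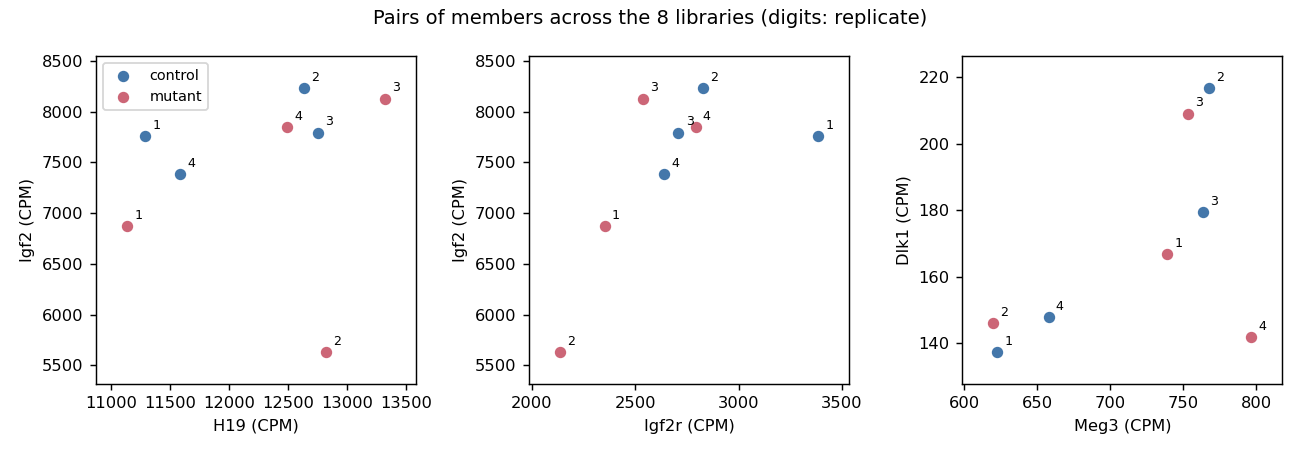
Levels of 3 pairs of members in the 8 libraries, in CPM on axes that do not start at 0, with control in blue, mutant in red and the replicate number beside each point. Mutant replicate 2 holds the lowest *Igf2* (5632 CPM) at an *H19* level of 12818 CPM, and together with mutant replicate 1 it sets the slope of *Igf2* on *Igf2r*.

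The genes whose pattern over the 8 libraries was most like that of a member were picked among 11643 genes of at least 5 CPM by Pearson r on the log2 scale, as a description. They were *Klf2* (r = 0.984) and *Olfm1* (0.95) for *H19*, *Etv4* (0.984) and *Dab2ip* (0.976) for *Igf2*, and *Slc7a1* (0.978) for *Igf2r*. *Mest* was nearest to *Myo16* (r = 0.987) and *Map3k20* (0.981), and *Cdkn1c* to *Wscd2* (0.983) and *Adsl* (0.98). The nearest genes were *Exo5* (r = 0.993) and *3830406C13Rik* (0.984) for *Peg3*, *Ipo5* (0.982) and *Larp1b* (0.96) for *Plagl1*, and *Ccdc77* (0.966) and *Rnf128* (0.963) for *Grb10*. *Psd* (r = 0.978) and *Efemp2* (0.957) were nearest to *Dlk1*, and *A430005L14Rik* (0.968) and *Sost* (0.967) to *Meg3*. No member was among the 2 nearest genes of another member. With 8 points and this many genes, an r of this size is found for every member.

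Neighbours in the members' domains were also read, on a list made after values had been seen. Beside *Peg3*, *Usp29*, which starts 146 bases away on the opposite strand, was at 33.8, 28.4, 31.5 and 33.5 CPM in control and 35.3, 35.4, 36.3 and 38.2 CPM in mutant libraries. *Zim1*, a zinc-finger gene of the same domain, was at 152, 128, 144 and 148 CPM in control and 154, 168, 171 and 168 CPM in mutant libraries. Mutant libraries were above every control for both neighbours, as for 3.2% of all genes. For *Peg3* itself the groups overlapped through mutant replicate 1. The log2 differences were 0.16 for *Peg3*, 0.19 for *Usp29* and 0.21 for *Zim1*. *Usp29* had a limma unadjusted p of 0.0295 and an adjusted p of 0.38, and *Zim1* had 0.0108 and 0.31. After a GC correction they were 0.13 for *Peg3*, 0.11 for *Usp29* (unadjusted p = 0.11) and 0.11 for *Zim1* (unadjusted p = 0.0593).

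In the *Dlk1* and *Meg3* domain, the noncoding RNA *Rian* was at 540, 465, 492 and 588 CPM in control and 614, 526, 631 and 655 CPM in mutant libraries, which overlap. Its log2 difference was 0.22 (limma unadjusted p = 0.0328 and adjusted p = 0.389), beside 0.049 for *Meg3*, which is read in the same direction. With the GC correction *Rian* was at 0.046 (unadjusted p = 0.652) and *Meg3* at 0.047. *Copg2*, whose end overlaps that of *Mest* on the opposite strand, was at 82.1, 85.8, 72 and 80.3 CPM in control and 79.8, 68.7, 68.5 and 69.9 CPM in mutant libraries, with a log2 difference of -0.16 (limma unadjusted p = 0.0631). With the GC correction *Copg2* was at -0.23 (unadjusted p = 0.0155 and adjusted p = 0.317). *Airn*, the noncoding RNA that runs through the start of *Igf2r* on the opposite strand and shares no exon sequence with it, had a log2 difference of -0.17 (limma unadjusted p = 0.107) beside -0.24 for *Igf2r*. With the GC correction *Airn* was at -0.21 (unadjusted p = 0.0472 and adjusted p = 0.439). *Igf2os*, antisense to *Igf2*, had -0.21 beside -0.14. The exons of *Igf2* also overlap those of *Gm49394* on the same strand and those of *Cdkn1c* overlap *Gm44732* on the other. The library kit marks strand but the setting used in counting is not given in the sources used here, so reads shared by *Igf2*, *Mest* or *Cdkn1c* with these genes cannot be assigned with certainty. The overlapping genes are at low levels beside the members, at 5.52 CPM for *Gm49394* and 22 CPM for *Gm44732* on average.

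**Figure D4:**
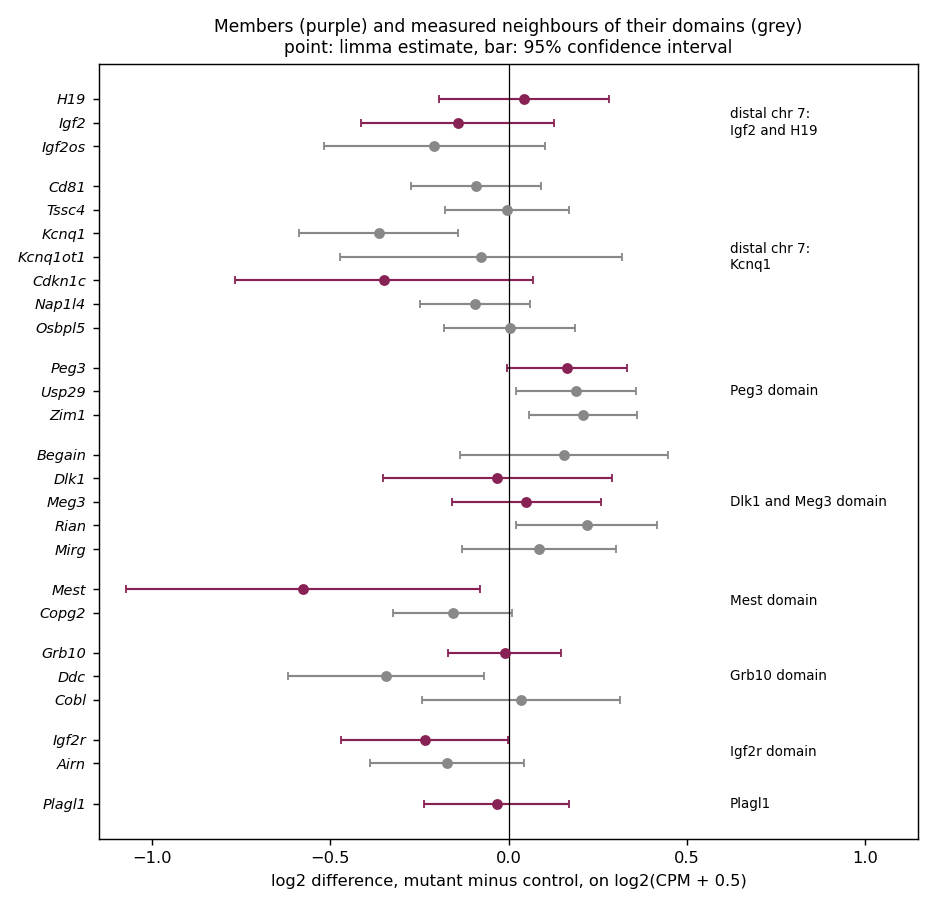
Log2 difference between mutant and control libraries on log2(CPM + 0.5) for the 10 members (purple) and measured neighbours of their domains (grey), ordered by domain, with the limma estimate as a point and its 95% confidence interval as a bar. The neighbours *Th*, *Tspan32*, *Phlda2* and *Klf14*, at mean levels of 1.09 to 3.64 CPM, are not drawn. Their log2 differences were 0.033, 0.072, -0.248 and -0.577 in that order, with intervals that span 0 (-1.258 to 0.103 for *Klf14*, of the *Mest* domain). The intervals of the members *Mest* and *Igf2r* (which ends at -0.001) and of the neighbours *Kcnq1* and *Ddc* lie below 0, those of *Usp29*, *Zim1* and *Rian* above 0, and the estimates of the 3 genes of the *Peg3* domain lie between 0.16 and 0.21.

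Of 58 other imprinted genes, 45 were measured and 0 passed an adjusted p of 0.05 in limma, edgeR or DESeq2. At an unadjusted p under 0.05, 5 were higher and 2 lower in mutant libraries, beside 5.45% and 6.62% of all genes. Groups did not overlap for 4 that were higher and 2 that were lower, beside 3.2% and 3.9% of all genes. Their median log2 difference was 0.068. *Impact*, a regulator of translation under amino acid shortage, was at 53.1, 44.9, 46.0 and 52.6 CPM in control and 58.1, 70.1, 55.7 and 59.5 CPM in mutant libraries, a log2 difference of 0.30 (SE 0.089, limma adjusted p = 0.27). Mutant libraries were all higher, and *Impact* lies 1870216 bases from the end of *Gata6* on chromosome 18, which also holds *Mib1*. *Kcnq1*, a potassium channel gene of the *Cdkn1c* domain, was at 12.4, 13.3, 14.1 and 12.8 CPM in control and 9.15, 11.1, 11 and 9.21 CPM in mutant libraries, and the groups did not overlap (log2 difference -0.37, SE 0.10, limma adjusted p = 0.258). *Ddc*, the neighbour of *Grb10* that makes dopamine and serotonin from their precursors, had a log2 difference of -0.34 (limma adjusted p = 0.346) with groups that overlapped through control replicate 2. *Gnas*, the most abundant of the list at 1570 CPM, had -0.078.

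Of 32 genes of the IGF and insulin pathway other than the members, 26 were measured, and 1 was lower and 0 higher at an unadjusted p under 0.05, beside 12.1% of all genes in either direction, with a median log2 difference of -0.03. The 1 gene was *Grb14*, a paralog of *Grb10* in the same adaptor family, at 30.0, 30.1, 27.5 and 26.6 CPM in control and 24.3, 20.2, 20.4 and 26.9 CPM in mutant libraries. Mutant replicate 4 lay within the controls, and the log2 difference was -0.32 (SE 0.10, limma adjusted p = 0.298), beside -0.011 for *Grb10*. *Igfbp5*, which encodes a binding protein of IGFs and was the most abundant of the list at 1305 CPM, had 0.033. Of 13 genes that set or maintain imprints, 12 were measured and 0 were at an unadjusted p under 0.05, beside the same 12.1%. For 1 of the 12, *Setdb1*, all mutant libraries were above all controls, as for 3.2% of all genes (log2 difference 0.133, limma unadjusted p = 0.056). The median of the 12 was 0.108, and *Trim28*, the corepressor recruited by ZFP57 and the most abundant at 480 CPM, had -0.12.

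Of 11 growth regulators and paralogs of members, 9 were measured and 1 was at an unadjusted p under 0.05 in limma, beside 12.1% of all genes. That gene was *Mycn*, a transcription factor that drives proliferation, at 55.0, 66.9, 58.2 and 55.8 CPM in control and 49.3, 45.6, 43.3 and 42.0 CPM in mutant libraries. All mutant libraries were below all controls for *Mycn*, as for 3.9% of all genes. For *Lin28a*, at 1.75 CPM on average (log2 difference 0.37), all were above, as for 3.2% of all genes. The log2 difference of *Mycn* was -0.38 (SE 0.082), with an adjusted p of 0.195 by limma, 0.0123 by the edgeR likelihood ratio test and 0.00474 by DESeq2. At an adjusted p of 0.05 these tests called 0.0%, 0.732% and 1.31% of all genes. *Hmga2*, the most abundant of this list at 241 CPM and a chromatin protein linked to body size, had 0.20 (limma adjusted p = 0.439).

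**Figure D5:**
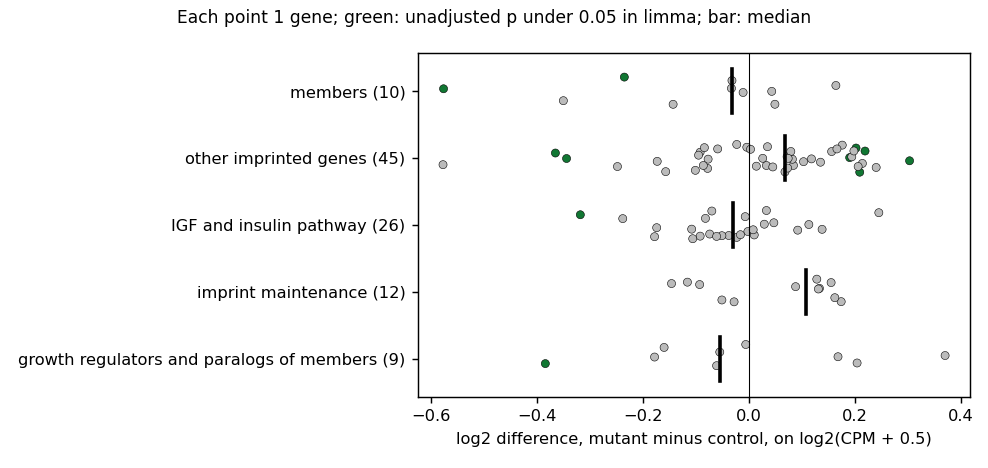
Log2 difference between mutant and control libraries on log2(CPM + 0.5) for the members and 4 related lists, with 1 point per measured gene, the number of genes in brackets and the median as a black bar. Green points have an unadjusted limma p under 0.05: 2 of 10 members, both lower, and 7 of 45 other imprinted genes, 5 higher and 2 lower.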

How the data were processed

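Poly-A RNA of E11.5 OFT was sequenced in 4 control and 4 mutant libraries, grouped as the labels give them. Per the labels and methods, the authors trimmed adapters with cutadapt, quantified reads with RSEM over GRCm38, removed weakly expressed genes and deposited CPM normalized by the TMM method of edgeR. Of 14608 genes, 14594 were found in the GRCm38 annotation, and 0 columns were left out. Values were whole multiples of 1 read (tolerance 0.01), worth 0.0325 to 0.0948 CPM, in 100% of cases in each library. The members and lists were chosen with earlier results of these data known. Context genes were named by rule: from each list the 2 smallest limma p under 0.05 in each direction and the most abundant gene, and the 2 genes most like each member, of which 1 is not reported here.

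Differences were tested with limma 3.58.1 (lmFit, eBayes with trend) in R 4.3.3 on log2(CPM + 0.5), two-sided, with Benjamini-Hochberg adjustment over all genes. On that scale the difference of a low gene is understated. Fold changes of named genes were also tested with exact permutations in Python. Nothing says that libraries came from separate litters, so p-values measure the spread between these libraries. Alternatives were pseudocounts of 0.1 and 2, a mean of at least 5 CPM, median-ratio scaling, no trend, edgeR 4.0.16 and DESeq2 1.42.0 on recovered reads, a replicate block, a GC correction and leaving out each library. The scripts were tested on simulated data.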

Additional observations from a re-analysis of the deposited data

Results flagged for a closer look

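In groups of 4, a library was noted where it stood apart from the other 3 by more than Dixon's 95% limit allows. This held for 5 of 54 groups examined, and chance gives about 1 in 20. *Mest* was at 2619 CPM in control replicate 1 and from 1583 to 1711 CPM in the other controls. *Trim28* was at 377 CPM in mutant replicate 2 and from 480 to 499 CPM in the other mutant libraries. *Hmga2* was at 219.6 CPM in mutant replicate 2 and from 269.9 to 272 CPM in the others. *Copg2* was at 79.8 CPM in mutant replicate 1 and from 68.5 to 69.9 CPM in the others. *Airn* was at 33.9 CPM in mutant replicate 2 and from 40.0 to 40.6 CPM in the others.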

How the results depend on the processing

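The count of all genes past an adjusted p of 0.05 was 0 in limma, 107 with the likelihood ratio test of edgeR and 192 with DESeq2, and the cause was not tested. With the replicate number as a block it was 0, and 0 members passed. The labels do not say whether the replicate numbers pair the libraries. The correlation of deviations ran from -0.271 to 0.05 between same-numbered libraries and from -0.302 to 0.378 between the others. These values cannot tell whether same-numbered libraries shared a litter. Under the block, *Dlk1* with the GC correction had a log2 difference of 0.020, as it had with the GC correction alone. The GC correction also turned *Mib1* to -0.012 and *Gnas* to 0.018. It brought *Rian* to 0.046, *Usp29* to 0.11, *Zim1* to 0.11 and *Igf2r* to -0.21, all then at an unadjusted p above 0.05. In the other direction, it brought *Copg2* to -0.23 and *Airn* to -0.21, both then at an unadjusted p under 0.05. *Grb14* moved to -0.45 and *H19* to 0.12. Other imprinted genes at an unadjusted p under 0.05 went from 7 to 10 with this correction, and members from 2 to 1. With it, 0 genes passed an adjusted p of 0.05. *Mycn* passed the threshold with the likelihood ratio test (-0.39) and with DESeq2 (-0.39). Leaving out 1 library turned the sign of *Dlk1* (range -0.15 to 0.092), *Meg3* (-0.007 to 0.12), *Plagl1* (-0.097 to 0.05), *Grb10* (-0.035 to 0.013) and *Igfbp5* (-0.032 to 0.089), and of the r of *H19* and *Igf2* (-0.079 to 0.793). The r of *Igf2* and *Igf2r* ran from 0.445 to 0.909. It passed the threshold without control replicate 1, after an adjustment over the pairs that does not cover the choice of library. *H19*, *Igf2*, *Peg3*, *Mest*, *Cdkn1c* and *Igf2r* kept their sign in all 19 settings. The median of the members ran from -0.081 to -0.023 without 1 library.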
